A study of Mus musculus with 9 samples.

Results

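MORF4L2 is a chromatin protein that can join the NuA4 histone acetyltransferase complex, and its gene was examined here together with 9 other genes of that complex in mouse testis at postnatal day 10. The 10 genes were Morf4l1, Morf4l2, Mrgbp, Kat5, Ep400, Trrap, Dmap1, Epc1, Epc2 and Brd8, found by gene name in the deposited table, where they held 21 of 29661 rows and were 10 of 23387 genes. Each row is 1 RefSeq transcript. The group was chosen by measured values of these same columns: 1 row of Morf4l2 was among the 7 rows that the authors' own test called, so that row's difference is a description and not a finding. The other 9 genes were added as subunits of the same complex. The study profiled RNA of 3 testis samples labelled Lin28a knockout, named cKO in their titles, and 3 labelled wild type, all of strain C57BL/6, while 3 LIN28A CLIP samples were left out. The labels give neither a promoter for any Cre transgene nor whether the samples of a group are separate animals.

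The table gives 1 FPKM value per group (fragments scaled by transcript length and by library total), under the headers case and control, so no error, n or spread between samples stands beside any value, and the depth is unknown. The case header was taken to mean the knockout samples, on no other ground than the word. Lin28a itself was at 23.4 FPKM in the case column and 8.82 FPKM in the control column in the authors' deposited table, 2.66-fold higher, which goes against that reading. The columns are therefore called the case column and the control column, and every direction rests on those headers.

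NuA4, also called the TIP60 complex, acetylates histones H4 and H2A and exchanges histone variants in nucleosomes. MORF4L1, known as MRG15, reads methylated histone H3 through a chromodomain. MORF4L2, known as MRGX, shares the C-terminal MRG domain but has no chromodomain. In mouse spermatids, KAT5 and EPC1 are known for the histone acetylation that precedes replacement of histones, and MORF4L1 for splicing of late transcripts.

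Morf4l2 lies on chromosome X and has several RefSeq transcripts, and RefSeq (GRCm38.p6) gives 4 start windows for it, more than for any of the 7 other members with an entry. Kat5 has 2 windows, and 6 members have 1 each. Of all genes with an entry, 1.26% have 4 or more. The windows are shown because the rows whose values differ belong to this gene. The tables used here do not say which row begins in which window. Each holds 250 bases before and 50 after a start site, on the minus strand, written 5′ to 3′, at chrX:136743637-136743936, chrX:136741560-136741859, chrX:136741303-136741602 and chrX:136741106-136741405. Capitals mark, on either strand, the TATA-type motif TATAA, the box CCAAT, the E-box CACGTG and the cAMP-element core TGACGT.
Window 1: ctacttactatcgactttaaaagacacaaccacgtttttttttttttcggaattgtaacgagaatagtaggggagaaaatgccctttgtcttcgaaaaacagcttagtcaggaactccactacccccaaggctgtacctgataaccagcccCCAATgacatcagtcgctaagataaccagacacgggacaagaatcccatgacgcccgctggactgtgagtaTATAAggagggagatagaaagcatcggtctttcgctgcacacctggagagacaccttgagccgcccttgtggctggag
Window 2: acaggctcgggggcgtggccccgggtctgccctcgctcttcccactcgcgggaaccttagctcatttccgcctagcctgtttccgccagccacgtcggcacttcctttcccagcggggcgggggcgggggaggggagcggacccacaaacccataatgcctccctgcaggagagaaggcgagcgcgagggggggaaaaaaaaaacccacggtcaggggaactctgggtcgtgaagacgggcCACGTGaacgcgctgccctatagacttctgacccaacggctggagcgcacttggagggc
Window 3: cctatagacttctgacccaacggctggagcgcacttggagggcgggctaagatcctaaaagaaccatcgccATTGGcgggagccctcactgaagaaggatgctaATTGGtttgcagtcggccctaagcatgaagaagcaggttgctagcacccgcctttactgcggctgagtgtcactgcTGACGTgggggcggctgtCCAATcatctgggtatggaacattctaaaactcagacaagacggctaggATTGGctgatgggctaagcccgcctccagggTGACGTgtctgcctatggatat
Window 4: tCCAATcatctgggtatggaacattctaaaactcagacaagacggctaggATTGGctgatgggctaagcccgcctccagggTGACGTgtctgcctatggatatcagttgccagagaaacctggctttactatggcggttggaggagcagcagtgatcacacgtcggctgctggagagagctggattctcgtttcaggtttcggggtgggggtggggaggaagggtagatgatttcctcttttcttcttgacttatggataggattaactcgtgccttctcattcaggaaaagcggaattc

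The windows differ in the motifs they hold. Window 1, the most upstream, holds TATAA beginning 28 bases before its start site and CCAAT 99 bases before it, at 47.7% G and C. Window 2 begins its transcript 2077 bases further on, holds CACGTG 9 bases before the start, and reaches 65.7% G and C. Window 3 holds CCAAT 4 times and TGACGT 2 times. Window 4 holds CCAAT 2 times and TGACGT 1 time, and all of these lie in the 103 bases that it shares with window 3. Windows 2 and 3 share 43 bases. Over 32851 RefSeq windows of the same length, 24.9% held TATAA, 37.4% held CCAAT, 7.15% held CACGTG and 7.51% held TGACGT, and no motif overlapped another in these windows. A match describes the letters and is not evidence of binding.

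Morf4l2 differed between the columns by row far more than in sum. All of its rows carry the region from 136732948 to 136803361 on chromosome X (mm10), which also covers rows of the noncoding gene BC065397, at 1.44 FPKM in the case column and 1.30 FPKM in the control column, and of Glra4, at 0.0255 and 0.0206 FPKM in case and control. The row NM_001168226 was at 30.7 FPKM in the case column and 9.63 FPKM in the control column in the authors' deposited table, 3.19-fold higher with p = 6.79e-06 and q = 0.0132. It was the last row inside the q-value threshold of 0.05, and the first row outside, of Spp1, had q = 0.183 in the authors' deposited table. The most abundant row, NM_001168228, went the other way, at 135 FPKM in the case column and 168 FPKM in the control column, 1.25-fold lower with p = 0.196 in the authors' deposited table. Its difference in FPKM, -33.5, was larger in size than the 21.1 of the called row.

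The remaining rows were smaller or closer. NM_001168229 was at 31.0 FPKM in the case column and 27.8 FPKM in the control column (p = 0.609), in the authors' deposited table. NM_001168225 was at 3.56 and 2.01 FPKM in the case and control columns (p = 0.242), in the authors' deposited table. NM_001168230 was at 3.51 and 5.52 FPKM in the case and control columns (p = 0.291), in the authors' deposited table. None of these 3 passed the threshold. NM_019768 was below 1 FPKM in both columns, at 0.333 FPKM in case and 0.683 FPKM in control, and NM_001168227 was listed at 0 in both. These last rows were not tested by the authors.

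**Figure D1:**
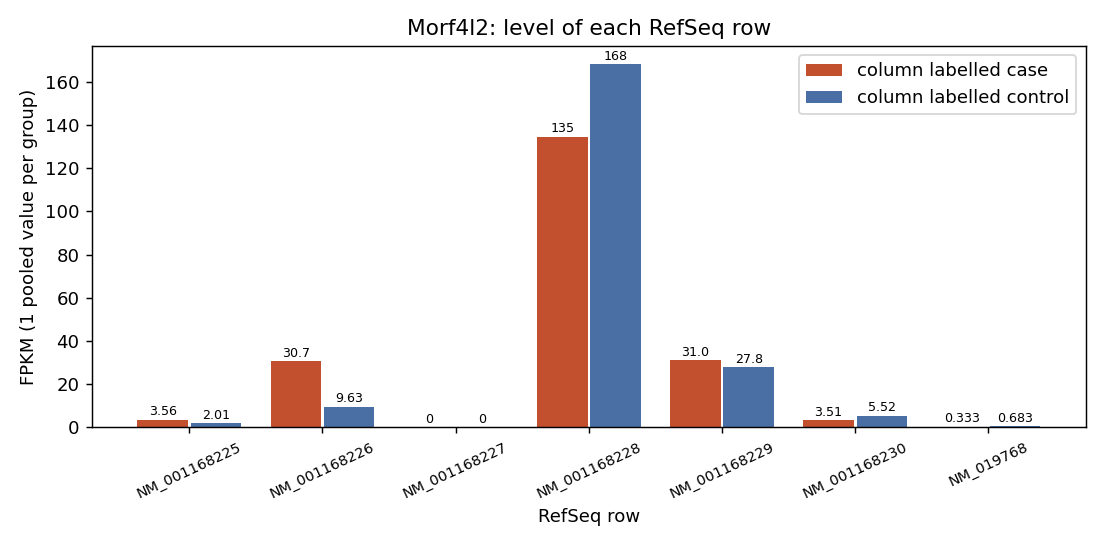
FPKM of the 7 RefSeq rows of Morf4l2 in the authors' deposited table, as bars for the case (orange) and control (blue) columns, 1 pooled value each without error. NM_001168226 stands at 30.7 against 9.63 FPKM, while the tallest row, NM_001168228, stands at 135 against 168 FPKM.

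Summed over its 7 rows, Morf4l2 was at 204 FPKM in the case column and 214 FPKM in the control column, 1.05-fold lower. On the log2(FPKM + 1) scale this was a difference of -0.07, case minus control. Without NM_001168226 the sum was 173 FPKM in case and 204 FPKM in control. Without NM_001168228 it was 69.1 FPKM in case and 45.6 FPKM in control, so the direction of the gene's sum turned on its most abundant row. NM_001168226 and NM_001168228 together held 165 FPKM in case and 178 FPKM in control.

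As shares of the gene, NM_001168226 took 15.1% of Morf4l2 FPKM in the case column and 4.50% in the control column. NM_001168228 took 66.1% in case and 78.7% in control. NM_001168229 took 15.2% in case and 13.0% in control. In both columns NM_001168228 was the largest, and the order of the next 2 rows was close in case (15.2% and 15.1%) and wide in control (13.0% and 4.50%). Transcripts of 1 gene share exons, so reads that fit several rows had to be divided among them, and the sources used here do not say how. A row's gain and another's loss within a gene are therefore not separate measurements.

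**Figure D2:**
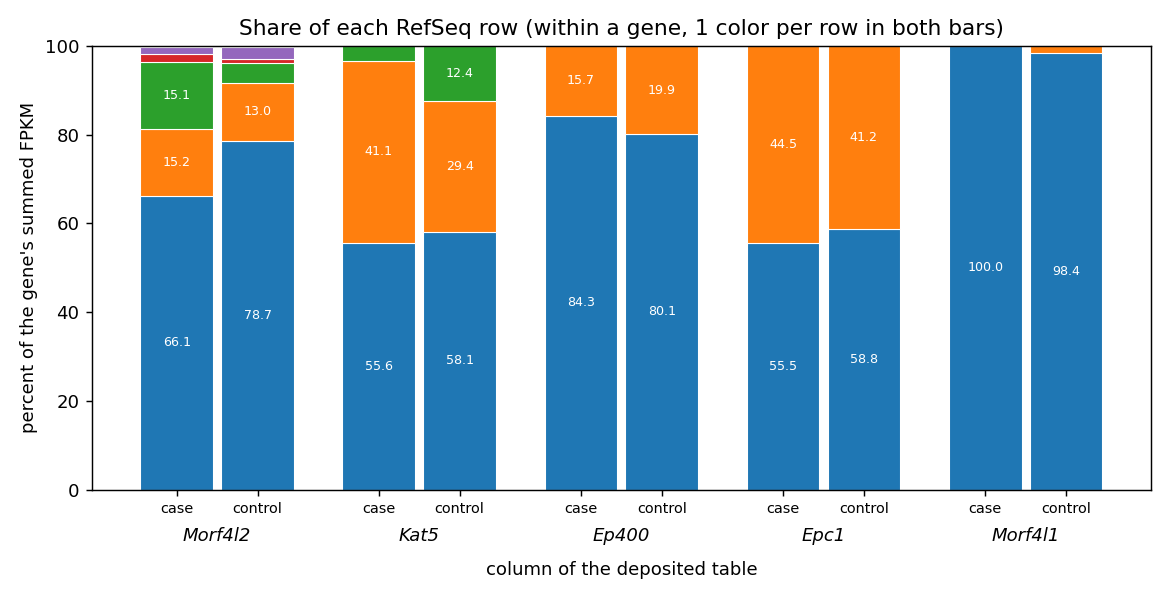
Percent of each gene's summed FPKM held by each RefSeq row, for the 5 members with more than 1 row, in the case (left bar) and control (right bar) columns. For Morf4l2, from the bottom, the bars show NM_001168228 (66.1% against 78.7%), NM_001168229 (15.2% against 13.0%) and NM_001168226 (15.1% against 4.50%), with the smaller rows on top.

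The row-share shift of a gene is the sum of the positive share differences of its rows, in percentage points, and measures how far its makeup differed between the columns. It was 13.6 points for Morf4l2, 11.7 for Kat5, 4.17 for Ep400, 3.32 for Epc1 and 1.56 for Morf4l1. Of the 13.6 points of Morf4l2, 10.6 are those of NM_001168226, whose call chose the gene, so nothing is read from how its shift ranks among genes. Across the 2225 genes with more than 1 row and a mean summed FPKM of at least 5, the median was 2.80 points, and 11.1% of genes (248) shifted by at least 10 points, as did 2 of the 5 members, Morf4l2 itself and Kat5. A shift at least as large as that of Kat5 was found in 8.04% of those genes. All rows of Kat5 had the status FAIL, which carries no usable p-value. Among those genes with a FAIL row at 1 FPKM or more the share was 14.5% (110 of 761), and among those with none 4.71%. This split by status was made after the values were seen.

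Shifts were smaller in genes at higher FPKM. Among 989 genes at a mean of at least 20 FPKM the median was 2.04 points, and among 86 genes at a mean of at least 100 FPKM it was 1.09 points. The 5 genes outside the members with the largest shifts at 20 FPKM or more were Dnajb6 (29.6 points), Ss18 (27.3), Pdp1 (26.1), Tcf3 (21.0) and Rbmxl1 (20.5). In each of the 5 the row that gained most had the status FAIL, for which the authors' table gives no usable p-value. Dnajb6, a chaperone gene, was at 30.3 FPKM in case and 31.3 FPKM in control in sum, yet its row NM_001127367 took 46.8% of it in case and 17.2% in control.

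**Figure D3:**
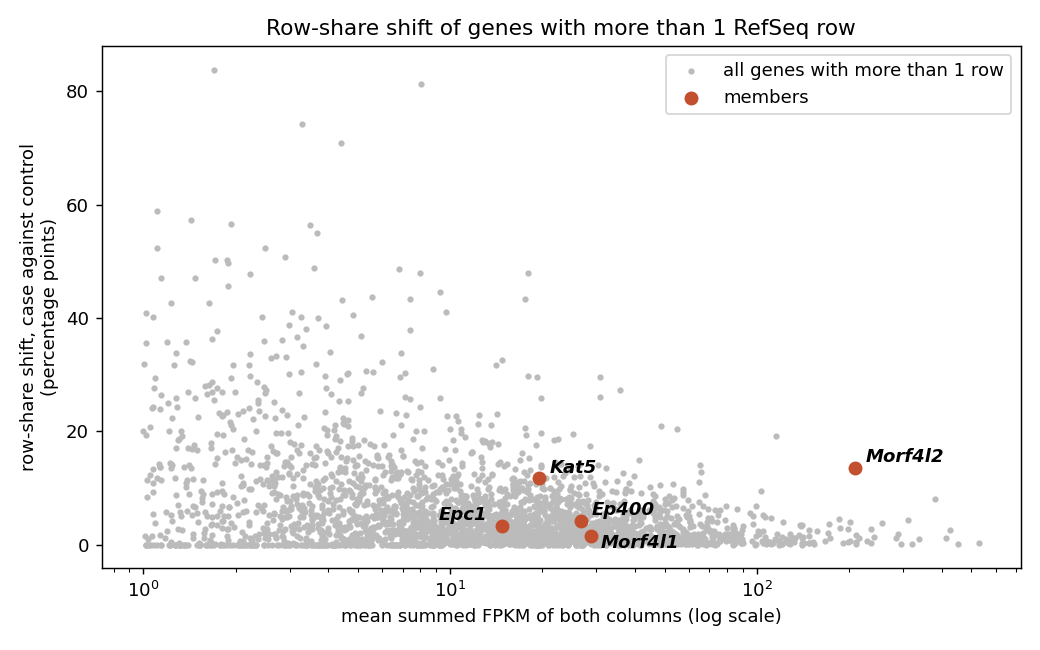
Row-share shift between the case and control columns (vertical, percentage points) against mean summed FPKM (horizontal, log scale), 1 point for each gene with more than 1 row and a mean of at least 1 FPKM. The 5 members with more than 1 row are marked; Morf4l2 is at 13.6 points, 10.6 of them from the row whose call chose the gene, and Kat5 is at 11.7.

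The paralog Morf4l1 and the partner Mrgbp were lower in the case column without passing the threshold. Morf4l1 (chromosome 9, 90091669 to 90114820) was at 26.9 FPKM in case and 30.1 FPKM in control in its main row NM_001039147 (p = 0.551), in the authors' deposited table. The second row, NM_024431, was listed at 0 in case and stood at 0.477 FPKM in control and was not tested. Summed, Morf4l1 differed by -0.18 on the log2(FPKM + 1) scale. Mrgbp (chromosome 2, 180581304 to 180585634), which encodes the protein that binds both MRG proteins within NuA4, was at 18.1 FPKM in case and 20.9 FPKM in control (p = 0.554), in the authors' deposited table. In sum Morf4l1 was 1.14-fold and Mrgbp 1.15-fold lower, and Dmap1 of the other subunits was likewise 1.14-fold lower.

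The level of Morf4l1 is uncertain, because the table also holds its transcribed pseudogene Morf4l1-ps1 on chromosome 16. The pseudogene's row NR_038091 was at 72.6 FPKM in case and 69.8 FPKM in control, with the status FAIL. That was 2.70 times the level of Morf4l1 in case and 2.28 times in control, and reads of near-identical copies can be split between them. Morf4l1 and Morf4l1-ps1 together were at 99.5 FPKM in case and 100.4 FPKM in control. Morf4l2 was at 7.58 times the FPKM of Morf4l1 in case and 6.99 times in control, and at 2.05 times and 2.13 times that of Morf4l1 and the pseudogene together.

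The catalytic subunit gene Kat5 (chromosome 19, 5603014 to 5610094), whose product TIP60 acetylates histones, had rows of the status FAIL throughout, so no p-value can be read for it. Summed over 3 rows it was at 20.5 FPKM in the case column and 18.6 FPKM in the control column, 1.10-fold higher. NM_178637 was at 11.4 FPKM in case and 10.8 FPKM in control. NM_001199247 was at 8.42 FPKM in case and 5.47 FPKM in control, or 41.1% and 29.4% of the gene. NM_001199248 was at 0.676 FPKM in case and 2.31 FPKM in control, or 3.30% and 12.4% of the gene. Rows of Kat5 and of Ep400, like those of Morf4l2, went opposite ways around a sum that differed little. For Kat5 and Ep400 no usable test by the authors stands beside this. How many of all genes have such rows was not counted, so nothing particular to the members is read from it. Of the 2225 genes with more than 1 row and a mean summed FPKM of at least 5, 37.4% shifted at least as much as Ep400. A row of Kat5 that carries no gene name, NM_001199249, was at 0.885 FPKM in case and 0.730 FPKM in control.

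Ep400 (chromosome 5, 110664373 to 110770717), which encodes the ATPase that exchanges histone variants, was at 26.9 FPKM in case and 26.5 FPKM in control in sum. NM_029337 was at 22.7 FPKM in case and 21.3 FPKM in control, and NM_173066 at 4.23 FPKM in case and 5.27 FPKM in control, both with the status FAIL. The share of NM_029337 was 84.3% in case and 80.1% in control. FAIL was the status of 26.2% of rows in genes with more than 1 row, against 1.14% of rows in genes with 1 row.

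No row of the scaffold and accessory subunit genes passed the threshold. Trrap (chromosome 5, 144768792 to 144859773), a large pseudokinase scaffold that NuA4 shares with the SAGA complex, was at 50.7 FPKM in case and 47.6 FPKM in control (p = 0.745), in the authors' deposited table. Dmap1 (chromosome 4, 117674686 to 117682225), which encodes a partner of the DNA methyltransferase DNMT1, was at 22.1 FPKM in case and 25.1 FPKM in control (p = 0.542), in the authors' deposited table. Brd8, the bromodomain subunit on chromosome 18, was at 21.9 FPKM in case and 20.6 FPKM in control (p = 0.716), in the authors' deposited table. These 3 genes have 1 row each.

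Epc1 and Epc2 encode the enhancer of polycomb proteins, which hold the catalytic module to the complex. Epc1, on chromosome 18, was at 15.5 FPKM in case and 14.1 FPKM in control in sum. Its row NM_007935 was at 6.89 FPKM in case and 5.81 FPKM in control (p = 0.490), and its row NM_027497 at 8.59 FPKM in case and 8.29 FPKM in control (p = 0.883), in the authors' deposited table. Epc2 (chromosome 2, 49451486 to 49551609) was at 13.4 FPKM in case and 13.6 FPKM in control (p = 0.954), in the authors' deposited table. Both rows of Epc1 were higher in case. With a shift of 3.32 points, NM_027497 stayed the larger row, at 55.5% of the gene in case and 58.8% in control.

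Across the members, 5 genes had the higher sum in the case column and 5 the lower, with a median difference of 0.0029 on the log2(FPKM + 1) scale and a range from -0.20 to 0.13. Of the 12664 genes at a mean of at least 1 FPKM, 60.8% were higher, with a median of 0.03, and 90% of them lay between -0.24 and 0.28, where all 10 members also lay. No member passed a 1.5-fold difference in sum, as 2.72% of those genes did. Of the 13 member rows that the authors tested, 1 was called, against 0.0514% of all 13629 tested rows, and nothing is read from that count, since the call chose the gene. The same row was the single one of the 13 with an unadjusted p under 0.05, as 1.28% of all tested rows had, and the p-values of the other 12 rows ran from 0.196 to 0.954 in the authors' deposited table.

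In level, Morf4l2 stood apart from the other members, at 4.02 times the next gene, Trrap, in case and 4.50 times in control. This leaves aside the pseudogene Morf4l1-ps1. Morf4l1 and Morf4l1-ps1 together, at 99.5 FPKM in case and 100.4 FPKM in control, were above Trrap. Morf4l2 was at 2.05 times and 2.13 times that level. The FPKM of Morf4l2 exceeded that of 98.7% of the genes analysed, in the case column. Without the pseudogene, Trrap came second in both columns, and Epc1 and Epc2 came last in both. Between them lay Ep400, Morf4l1, Dmap1, Brd8, Kat5 and Mrgbp, from 18.1 to 26.9 FPKM in case and from 18.6 to 30.6 FPKM in control. Of these 6, Dmap1 held its place and the others changed places, and no spread between samples exists to tell neighbours apart.

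**Figure D4:**
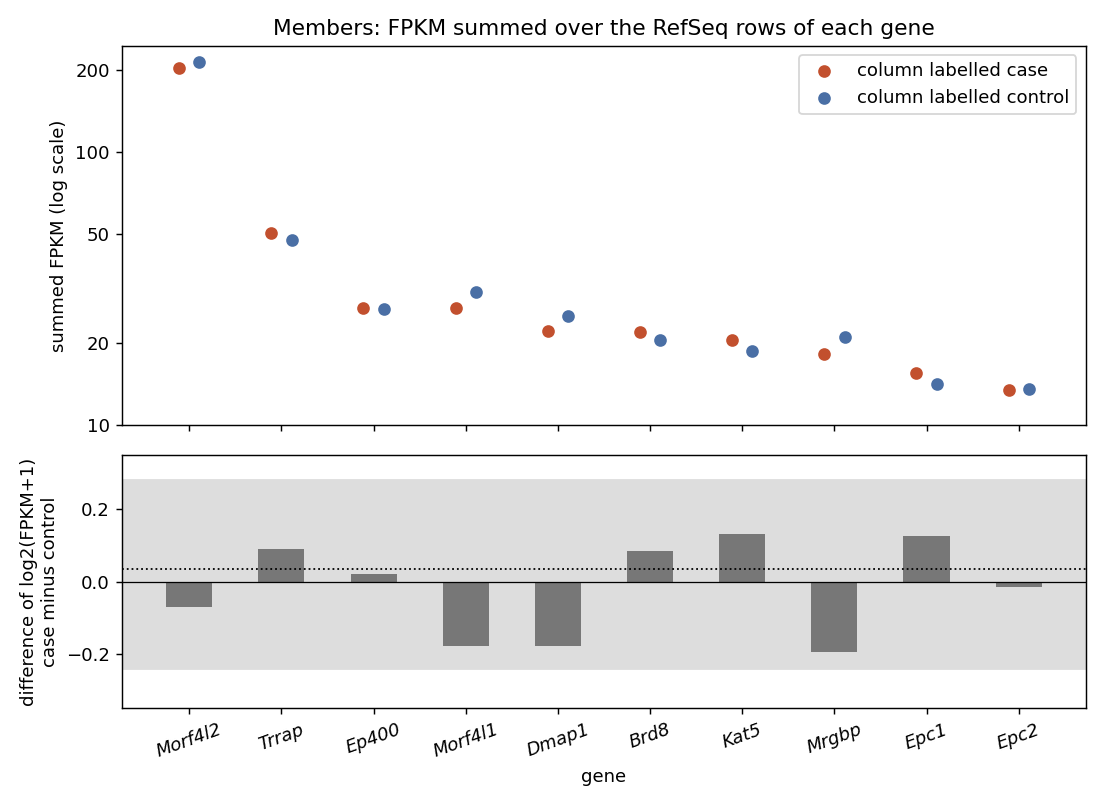
Top, FPKM summed over the rows of each member in the case (orange) and control (blue) columns, on a log scale, 1 pooled value each. Bottom, case minus control on the log2(FPKM + 1) scale, with a grey band for the middle 90% of 12664 genes (-0.24 to 0.28) and a dotted line at their median of 0.03; every member lies in the band.

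Among genes of complexes related to NuA4, no tested row was called. Of 59 genes in 5 lists, 58 were in the table, and in the case column 42 of these were higher and 16 lower. Of their 55 tested rows, 0 had q under 0.05 and 0 had an unadjusted p under 0.05 in the authors' deposited table, beside 0.0514% and 1.28% of all tested rows. Shares this small leave few or no calls among 55 rows, so these counts of 0 carry little information. In sum, 1 of the 58 genes passed 1.5-fold, beside 2.72% of all genes, so these counts are near the background. It was Hdac1, a histone deacetylase of the SIN3 complexes that MRG proteins join, at 7.78 FPKM in case and 12.5 FPKM in control, 1.60-fold lower (p = 0.0607 per the authors' deposited table, q above the threshold). Its paralog Hdac2 was at 106 FPKM in case and 101 FPKM in control.

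The remaining 10 NuA4 subunit genes had a median difference of 0.02 on the log2(FPKM + 1) scale, with 7 higher and 3 lower. The furthest were the ATPase gene Ruvbl1, at 9.97 FPKM in case and 10.9 FPKM in control, Vps72, at 39.9 and 37.0 FPKM in case and control, and the YEATS domain gene Yeats4, at 57.3 and 61.2 FPKM in case and control. The 13 genes of other complexes that hold MRG proteins had a median of 0.02, with 7 higher and 6 lower. After Hdac1 the furthest were the histone H3 demethylase gene Kdm5a, at 22.4 FPKM in case and 25.6 FPKM in control, and the corepressor gene Sin3b, at 506 FPKM in case and 551 FPKM in control. The 6 genes of the SRCAP and H2A.Z list that were analysed had a median of 0.0052, with 3 on each side, and the H2A.Z genes H2afv and H2afz were at 62.2 and 43.2 FPKM in case and at 59.4 and 44.3 FPKM in control. Actr6 was at 23.4 and 24.4 FPKM and Ino80 at 11.5 and 11.1 FPKM, each in case and control.

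The other MYST acetyltransferase genes and their subunits had a median of 0.06, with 13 of 15 higher. The furthest of these were the MSL complex genes Msl2, at 10.6 FPKM in case and 9.18 FPKM in control, and Msl1, at 27.0 and 24.3 FPKM in case and control, and Brpf3, at 24.0 and 21.6 FPKM in case and control. SAGA genes had a median of 0.07, with 12 of 14 higher. Among them Tada3 was at 11.8 FPKM in case and 10.1 FPKM in control, the acetyltransferase gene Kat2a at 26.5 and 23.2 FPKM in case and control, and Atxn7 at 6.38 and 5.54 FPKM in case and control. These counts stand beside 60.8% higher over all genes. With the case column rescaled by the median ratio, the medians of the other NuA4 subunits, of the other MRG complexes and of the SRCAP and H2A.Z list changed sign, to -0.01, -0.01 and -0.03.

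**Figure D5:**
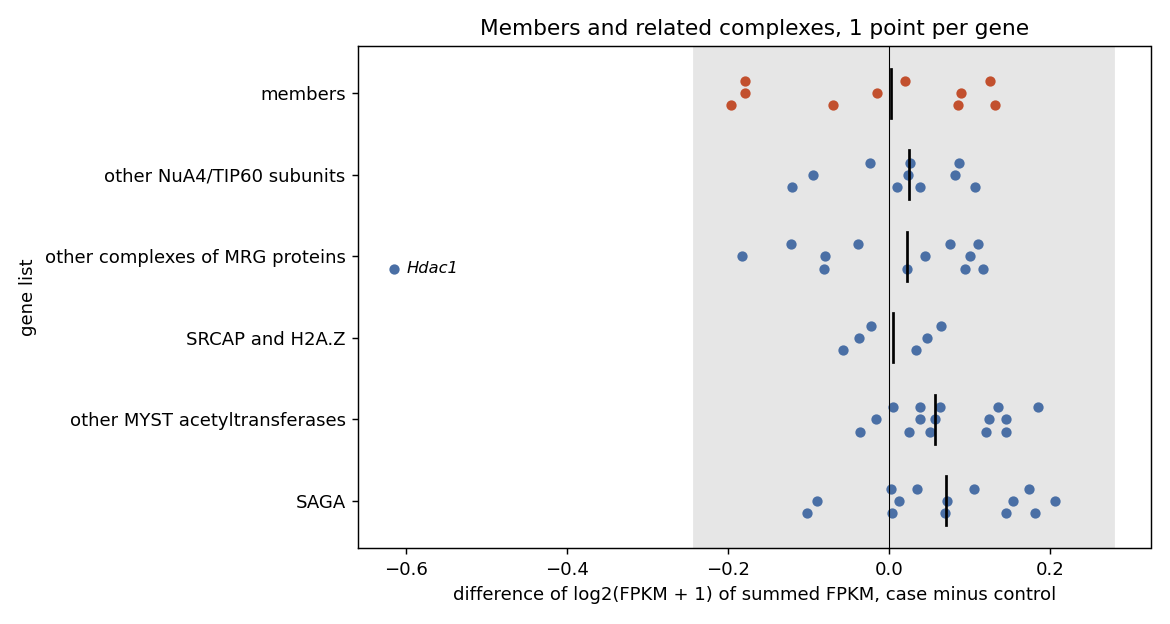
Case minus control on the log2(FPKM + 1) scale of summed FPKM, 1 point per gene, for the members (orange) and 5 lists of related complexes (blue), with a black bar at each median and a grey band for the middle 90% of 12664 genes. Hdac1, at 7.78 FPKM in case and 12.5 FPKM in control, is the single point outside the band.

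Testis markers were present, at sums that were not equal in the columns. The 6 germ cell markers summed to 448 FPKM in case and 550.3 FPKM in control. Of these, 5 were lower in case, and Zbtb16 was higher, at 16.8 FPKM in case and 14.9 FPKM in control. The furthest was the meiotic axis gene Sycp3, at 69.2 FPKM in case and 125 FPKM in control, with the status FAIL and so no p-value. Ddx4 was nearly equal, at 72.6 FPKM in case and 72.8 FPKM in control. Kit, also without a p-value, was at 29.0 and 30.0 FPKM, Dazl at 192 and 222 FPKM and Stra8 at 68.1 and 86.3 FPKM, each in case and control. The 4 Sertoli cell markers summed to 316 FPKM in case and 279 FPKM in control. The 5 Leydig cell markers summed to 289 FPKM in case and 228 FPKM in control, and all 9 of these were higher. The 3 peritubular markers summed to 372 FPKM in case and 322 FPKM in control and the 3 endothelial markers to 25.8 FPKM in case and 21.7 FPKM in control, all higher, while the 3 macrophage markers summed to 11.3 FPKM in case and 12.4 FPKM in control, all lower. None of the tested rows of these 6 lists had an unadjusted p under 0.05 in the authors' deposited table. Of the 4 spermatid markers, Prm1 and Prm2 were listed at 0 in both columns, Tnp1 was at 1.30 FPKM in case and 1.82 FPKM in control (p = 0.655 in the authors' deposited table), and Acrv1 was at 0.117 FPKM in case and 0.0765 FPKM in control. Of the 3 epididymis markers, Crisp1 was at 0.261 FPKM in case and 2.27 FPKM in control, 8.69-fold lower with an unadjusted p of 0.00256 in the authors' deposited table and not called by q, Defb20 was at 0.720 FPKM in case and 0.162 FPKM in control and was not tested, and Lcn5 was listed at 0 in both. The 2 red blood cell markers analysed summed to 672 FPKM in case and 633 FPKM in control, and 3 skeletal muscle markers were under 0.5 FPKM each. In bulk tissue, fewer cells of a type and less RNA per cell cannot be told apart, and the part of cell makeup in the row shares was not tested.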

How the data were processed

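RNA of mouse testis was aligned with TopHat2 version 2.0.9 to build mm10, per the submitters' processing notes. The authors' table, per the file headers, holds FPKM in 1 column per group, with 1 row per RefSeq transcript, and a p-value and q-value from their own test of the columns. Which program made them is not stated, and the table has the layout of a Cuffdiff gene table. The deposited log2 ratio is control over case (checked in 13586 rows, to within 5.01e-05), so differences were computed again as case minus control.

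Rows of the 10 genes were found by gene name in any letter case. The other rows were given symbols by accession from a RefSeq table of GRCm38.p6 for 29072 rows, otherwise by name. FPKM was summed per gene and a row's share taken in each column. Differences use log2(FPKM + 1), which understates changes of low genes, and gene counts use a mean FPKM of at least 1 and a fold of 1.5. Calls are the authors' own at q under 0.05. With 1 pooled value per group no test was run. The arithmetic was checked by putting known folds and share changes, without noise, into the mean FPKM of the rows and reading them back. Python 3.11.15 and pandas 2.3.3 were used. Starts were read as counting from 0.

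The members and lists were chosen with earlier results of these data known. The genes named were all members, from each list of related complexes the 3 with the largest difference at a mean FPKM of at least 5 and any with p under 0.05, Lin28a, and the 5 other genes with the largest row-share shift at a mean of at least 20 FPKM. Genes named outside this rule are described as such or serve as neighbours, copies or markers. The CLIP samples were not analysed here. Srcap was not analysed here.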

Additional observations from a re-analysis of the deposited data

How the results depend on the processing

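The count of 1 called member row stayed at 1 with q under 0.10, with an unadjusted p under 0.05 and with p-values adjusted again over tested rows at a mean of at least 1 FPKM. The first 2 settings are looser. The last keeps every row called before and lowers the number of tests. The row whose call chose the gene therefore passes each of these settings by construction. The settings show only that no other member row was added. No member passed 1.5-fold in sum under any of the 8 alternatives run, but the changes of pseudocount and of FPKM filter could not alter this. The fold was taken on FPKM without a pseudocount, and every member was above 5 FPKM. Of 78 gene sum differences under those alternatives, 77 moved by under 0.1 on the log2 scale. The other was Morf4l2 at -0.32 with its most abundant row alone. The values under a changed FPKM filter repeat the main ones by construction. Rescaling by the median ratio, which divided the case column by 1.03, turned the sign of Ep400, at -0.02, and of 3 list medians, given above. The share of genes with a row-share shift as large as that of Morf4l2 was 5.75% at a mean of at least 5 FPKM, 11.8% at 1 FPKM and 1.92% at 20 FPKM, by the construction of the background, and is a description only, since most of that shift is the row whose call chose the gene. The shift of Morf4l1 was 0 without its untested row. Leaving out each library was not run. No paired analysis was possible because the samples of a group stand in 1 pooled column. The depth of the libraries is unknown.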

Other observations

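Some rows differed in the direction opposite to the sum of their gene. Of 95 tested rows with an unadjusted p under 0.05 in genes with more than 1 row, 24 (25.3%) belonged to a gene whose sum differed in the opposite direction. Nearly all of the 24 were rows at low FPKM. Among the 13 such rows at a mean of at least 5 FPKM, 1 went opposite to its gene. That 1 is the called row of Morf4l2, and nothing is read from that, since its p-value chose the gene.

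The genes named here were picked with their values in view. Among genes of related acetyltransferases and their subunits, Kat6b and the subunit gene Jade1 had row-share shifts of 15.4 and 12.0 points, beside 11.7 for Kat5. Their sums were 12.8 and 23.6 FPKM in case against 12.4 and 23.0 FPKM in control. The most abundant row of Kat6b and that of Jade1 had the status FAIL. The shifts of the acetyltransferase genes Kat2a, Kat2b and Kat7 were smaller, at 8.25, 5.97 and 1.12 points. Genes at a mean of at least 20 FPKM with a FAIL row at 1 FPKM or more had a median shift of 4.02 points (381 genes), and those with none 1.27 points (608 genes). The largest shift in the second set was that of the ribosomal protein gene Rpl30, at 17.3 points. This split by status was added after seeing the data.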
